A study of Mus musculus with 32 samples.

Results

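The 10 genes followed here belong to the cytosolic glutathione S-transferase (GST) family and were measured across the livers of male and female mice with and without Cyp2c70 and with and without an ileal bile acid transporter inhibitor. They were the alpha class genes Gsta1, Gsta2, Gsta3, Gsta4 and Gm3776, the mu class genes Gstm1, Gstm2, Gstm3 and Gstm4, and the pi class gene Gstp1, which are 10 of the 54532 genes in the deposited count table. Members were matched by gene symbol. Gsta1 and Gm3776 were chosen by their values in these same livers, because they were higher in the knockout and higher again with the inhibitor, so in those contrasts their levels are given as a description with no test. All 10 genes passed the filter on low counts in every comparison, although Gsta1 (15 to 1327 counts per library) and Gm3776 (5 to 443) were by far the scarcest.

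The study sequenced poly-A RNA from the liver of 32 C57BL/6 mice, killed at 12 weeks of age, in 8 groups of 4. The groups crossed sex, genotype (WT or Cyp2c70 KO) and diet (chow, or chow with SC-435 at 0.006% of the diet, about 11 mg/kg/day; the labels place its start 3 weeks after weaning, which the study's methods do not match, so its duration is not stated here). Cyp2c70 is the mouse liver enzyme that makes muricholic acids, and SC-435 inhibits the ileal transporter that recovers bile acids from the gut (IBATi). The KO mice descend from 1 CRISPR-edited founder that lost a segment including exon 2, and carry the deletion in every tissue. In bulk liver RNA, fewer cells of a type and less RNA per cell cannot be told apart.

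GSTs join the thiol of glutathione to electrophilic compounds, such as drug metabolites and aldehydes from oxidised lipids, which then leave the hepatocyte through efflux pumps. The enzymes work as dimers within a class, and liver is rich in all of the alpha, mu and pi classes. Many of the genes are known targets of the oxidative stress sensor NRF2 (Nfe2l2), and some also respond to the xenobiotic receptors CAR and PXR.

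Gsta1, Gm3776 and Gsta2 lie within a single cluster on mouse chromosome 9 and are near copies, so reads can fit more than 1 of them. On the GRCm38 build the files place Gsta1 (ENSMUSG00000074183) at chr9:78230656-78242684 on the plus strand, Gm3776 (ENSMUSG00000111709) at chr9:78257129-78269166 on the plus strand and Gsta2 (ENSMUSG00000057933) at chr9:78331018-78355788 on the minus strand. Over 672 aligned coding bases Gsta1 and Gm3776 differ at 2 positions, T25C and C591T, counted from the A of the start codon with the Gsta1 base first (99.7% identity). Gsta1 and Gsta2 differ at 14 of 669 aligned coding bases (97.9% identity). Gsta4 (ENSMUSG00000032348) lies beside them at chr9:78182774-78209349 on the plus strand, with 66.5% coding identity to Gsta1, and Gsta3 (ENSMUSG00000025934) at chr1:21240589-21265661 on the plus strand. The mu class genes stand together on the minus strand of chromosome 3, Gstm3 (ENSMUSG00000004038) at chr3:107963696-107969283, Gstm2 (ENSMUSG00000040562) at chr3:107981702-107986453, Gstm1 (ENSMUSG00000058135) at chr3:108012255-108017973 and Gstm4 (ENSMUSG00000027890) at chr3:108040408-108044894. Gstp1 (ENSMUSG00000060803) lies at chr19:4035407-4037921 on the minus strand. The first position that separates Gsta1 from Gm3776 lies in exon 2 of 7, shown here over coding bases 1 to 55 of each gene, for Gsta1 at chr9:78232240-78232294, for Gm3776 at chr9:78258712-78258766 and for Gsta2 at chr9:78341862-78341916. Capitals mark the base that separates Gsta1 from Gm3776, and in Gsta2 any base that differs from Gsta1, of which this stretch has none:
Gsta1: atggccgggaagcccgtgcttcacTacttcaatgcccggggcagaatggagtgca
Gm3776: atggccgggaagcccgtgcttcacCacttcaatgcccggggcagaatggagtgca
Gsta2: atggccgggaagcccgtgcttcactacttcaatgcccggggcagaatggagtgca

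The other position lies in exon 7 of 7, shown over coding bases 561 to 621, for Gsta1 at chr9:78242467-78242527, for Gm3776 at chr9:78268950-78269010 and for Gsta2 at chr9:78331175-78331235, with capitals as above:
Gsta1: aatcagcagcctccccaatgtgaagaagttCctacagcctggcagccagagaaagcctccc
Gm3776: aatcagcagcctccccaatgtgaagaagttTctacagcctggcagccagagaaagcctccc
Gsta2: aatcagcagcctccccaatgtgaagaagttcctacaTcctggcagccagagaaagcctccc

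A read that covers neither position cannot tell the coding parts of Gsta1 and Gm3776 apart. Of the 905 different 50-base words in the annotated Gsta1 transcripts, 75.7% also occur in Gm3776, 46.6% in Gsta2 and 31.3% in Gm10639, a further copy in the cluster, and 90.5% occur in at least 1 other gene. For Gm3776 the share in at least 1 other gene was 92.5%, for Gsta2 49.8%, for Gstp1 33.7% (with Gstp2 and a pseudogene), for Gstm3 28.8% and for Gstm1 18.9%. It was 5.65% for Gstm2, 0.273% for Gsta3 and 0% for Gsta4 and Gstm4. How reads that fit several genes were counted is not given in the sources used here, so the split among Gsta1, Gm3776 and Gsta2 is uncertain, whereas Gsta3, Gsta4 and Gstm4 are nearly free of it. In the 32 livers Gsta1 ran at 0.891 to 10.5 times the level of Gm3776 in the same liver, in CPM.

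The 300-base promoter windows of Gsta1 and Gm3776 matched at 284 of 287 aligned bases (99.0%). A stretch of 150 bases upstream of the start, chosen because it has no difference between the genes, is printed, at chr9:78230506-78230655 for Gsta1 and chr9:78256979-78257128 for Gm3776 (GRCm38.p6, plus strand, RefSeq):
Gsta1 and Gm3776: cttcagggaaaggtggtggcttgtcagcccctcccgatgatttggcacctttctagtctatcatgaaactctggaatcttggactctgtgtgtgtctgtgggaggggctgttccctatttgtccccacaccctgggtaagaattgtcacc

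The core of the antioxidant response element, the site at which NRF2 binds, was searched for as TGACNNNGC on both strands of the 300 bases around each start (250 before to 50 after). Among the 9 members with a promoter entry (Gsta4 has none), 1 held a match, Gsta3. Over all genes 14% of 27025 held one, and 12.4% of all 32851 promoters did. Other forms of the site, and sites outside the window, were not searched for. A member without a match may therefore still carry an NRF2 site. The match in Gsta3 stands in capitals in the stretch at chr1:21240438-21240498 (GRCm38.p6, plus strand, RefSeq):
Gsta3: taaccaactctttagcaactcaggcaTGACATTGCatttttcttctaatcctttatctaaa

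Libraries held 36476021 to 44771350 counts. Cyp2c70 itself, read over its whole transcript, was at 275 to 851 CPM in WT and 110 to 187 CPM in KO livers, so the genotypes did not overlap and each library matched its genotype label. Replicate 1 of male WT chow stood apart, with a TMM scaling factor of 0.639 (0.955 to 1.01 in the other 3 of its group and 0.894 to 1.285 elsewhere) and a mean correlation of 0.920 with its group (0.967 to 0.969 in those 3), and the calls of members in male comparisons that use it are given with and without it. Levels are given as CPM, the count relative to the library total after TMM scaling (an edgeR factor that corrects for library makeup), and levels compared between genes are CPM per kilobase of gene model (CPM per kb).

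By CPM per kb, Gstm1 was the leading member in the 4 female groups and Gstp1 in 3 of the 4 male groups. The gene model of Gsta3 holds 4344 bases, against 757 to 1707 in the other members. Its rank, and the sums and shares below, depend on this length. In CPM, without that division, Gsta3 averaged 1216 and Gstm1 1209 in female WT mice on chow, and 1421 and 1154 on SC-435. In female KO mice Gsta3 averaged 861 and Gstm1 1219 CPM on chow, and 1350 and 1485 on SC-435. In female WT mice on chow Gstm1 averaged 821 ± 107 CPM per kb (SD, n = 4), followed without overlap by Gsta3 at 280.0 ± 85.2 and Gstp1 at 156 ± 35.8 CPM per kb. Gstm2 (42.9 CPM per kb), Gsta4 (42.7), Gstm3 (42.7) and Gstm4 (32.2) came next, and each overlapped its neighbour. Gsta2 (21.5 CPM per kb) lay below them, and Gsta1 (1.14) and Gm3776 (0.297) lay lowest and overlapped each other. In male WT mice on chow Gstp1 averaged 2710 ± 1758 and Gstm1 1305 ± 708 CPM per kb, which overlapped, and without replicate 1 the level of Gstp1 ranged from 1649 to 1928 and that of Gstm1 from 828 to 1025 CPM per kb, which did not. By CPM per kb, Gsta3 came after these 2 genes in every male group.

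The summed level of the 10 members was 1441 ± 258 CPM per kb in female WT mice on chow, 1458 ± 236 in female KO mice on chow and 1965 ± 163 in female KO mice on SC-435. In female WT mice on SC-435 it was 1537 ± 132 (1421 to 1725). In males the sum was 4676 ± 2762 CPM per kb in WT mice on chow (3202 to 8815), 3100 ± 566 in WT mice on SC-435, 3325 ± 154 in KO mice on chow and 3075 ± 85.6 in KO mice on SC-435. Gsta1 made up 0.0763% of the sum in female WT mice on chow and 0.812% in female KO mice on SC-435, so even where it was highest among females it was a minor transcript. Gstp1 made up 9.65% to 12.4% of the sum in the female groups and 33.3% to 56.9% in the male groups.

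**Figure D1:**
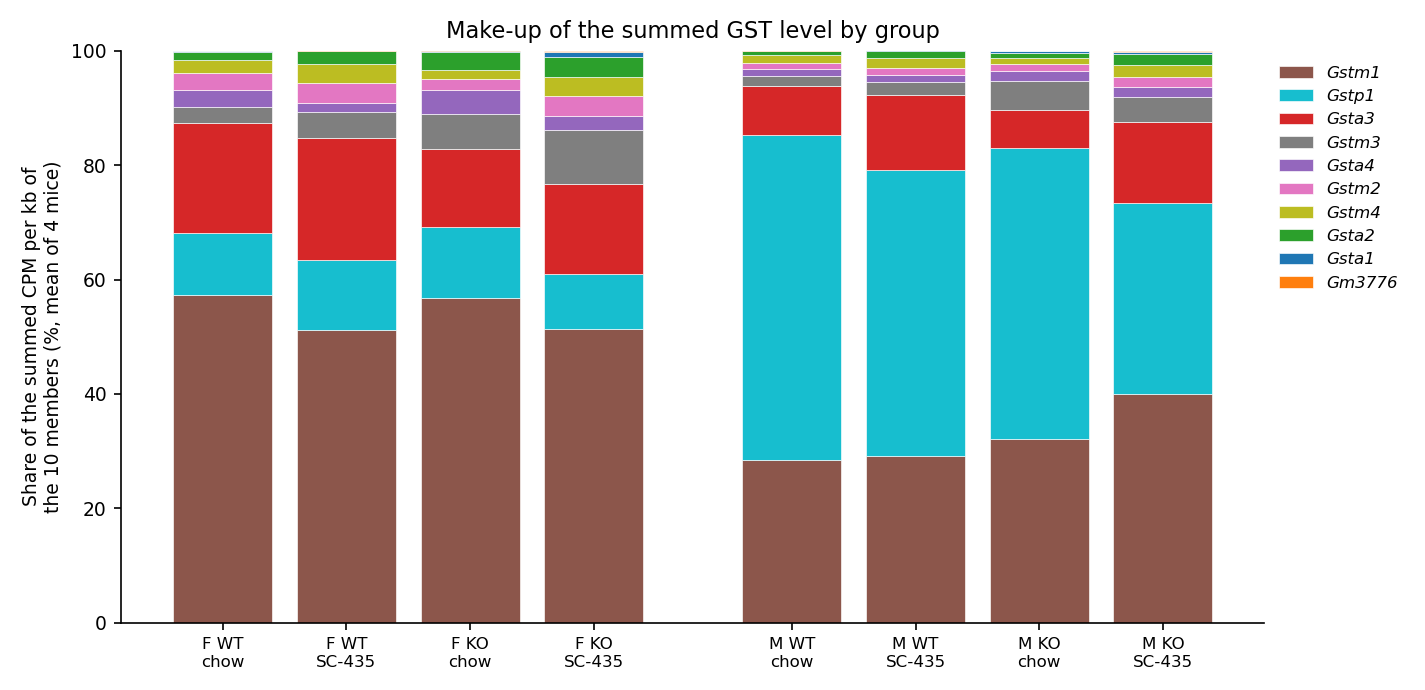
Mean share of each member in the summed CPM per kb of the 10 genes (vertical axis, percent) in the 8 groups, F for female and M for male, 4 mice a group. Gstm1 takes the largest share in the female groups (51.1% to 57.3%), Gstp1 the largest in 3 male groups, and Gsta1 and Gm3776 stay at the top edge as slivers.

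Gsta1 encodes an alpha class subunit known for its strong response to inducing compounds. In females it stood at 1.55, 1.32, 1.13 and 0.358 CPM in WT mice on chow. It was at 1.45, 3.49, 3.77 and 4.04 CPM in KO mice on chow, and at 14.1, 18.2, 21.5 and 8.29 CPM in KO mice on SC-435. KO mice on SC-435 all lay above KO mice on chow, and 3 of the 4 KO mice on chow lay above WT. In KO females 11.8% of all genes tested had every SC-435 mouse above every chow mouse. As a description, the fitted log2 fold change was 1.57 for KO over WT on chow and 2.27 for SC-435 over chow in KO, and the mean was 14.2 times higher in KO on SC-435 than in WT on chow. In female WT mice on SC-435 Gsta1 was at 1.17, 3.61, 0.989 and 0.899 CPM, of which 1 mouse lay above the range of WT on chow.

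In males Gsta1 was at 4.17, 3.18, 0.851 and 1.06 CPM in WT mice on chow. In KO mice on chow it was at 3.93, 3.33, 16.7 and 23.4 CPM, and in KO mice on SC-435 at 9.96, 8.24, 11.0 and 7.52 CPM. The 4 male KO mice on chow fell into a low and a high pair, and the SC-435 mice lay between the pairs, so the further increase with SC-435 by which the gene was chosen appeared in females and not in males. The fitted log2 fold change in males was 2.43 for KO over WT on chow and -0.41 for SC-435 over chow in KO, both given without a test. Without replicate 1 of WT on chow the mean of KO on chow was 6.99 times that of WT, and with it 5.12 times. The male KO mice on chow with high Gsta1, replicates 3 and 4, also had the highest summed level of 10 cholangiocyte markers, at 503 and 1179 CPM against 200.3 and 169 in replicates 1 and 2. The same mice were highest for 9 stellate cell markers (715 and 1143 CPM against 389 and 374) and 10 macrophage markers (503 and 1361 CPM against 347 and 406). Among female KO mice on chow, replicate 4 had the highest Gsta1 (4.04 CPM) and the lowest cholangiocyte (156 CPM) and stellate cell (426 CPM) sums. Its macrophage sum was 644 CPM, within a group range of 606 to 920 CPM. The part of these cells in the result was not tested.

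Gm3776, the near copy, gave a similar picture at lower counts in WT mice on chow and in KO mice. In females it was at 0.394, 0.331, 0.123 and 0.191 CPM in WT on chow, at 0.400, 0.844, 1.51 and 1.78 CPM in KO on chow, and at 3.97, 5.72, 8.34 and 2.52 CPM in KO on SC-435. These 3 groups did not overlap, but WT and KO on chow were parted only by 0.394 against 0.400 CPM (15 against 21 counts). Of all genes tested in females, 11.1% had every KO mouse above every WT mouse on chow. With SC-435 in KO, 11.8% had every SC-435 mouse above every chow mouse. Female WT mice on SC-435 had 0.262, 1.15, 1.11 and 0.494 CPM of Gm3776, mostly above WT on chow, unlike Gsta1. Its log2 fold change was 2.13 for KO over WT and 2.18 for SC-435 over chow in KO. In males it was at 1.21, 0.302, 0.776 and 0.515 CPM in WT on chow, at 0.718, 1.47, 4.91 and 7.81 CPM in KO on chow, and at 4.11, 3.13, 4.04 and 3.11 CPM in KO on SC-435. The log2 fold change was 2.49 for KO over WT and -0.10 for SC-435 over chow in KO. Given how much sequence the genes share, Gm3776 is not separate evidence from Gsta1.

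**Figure D2:**
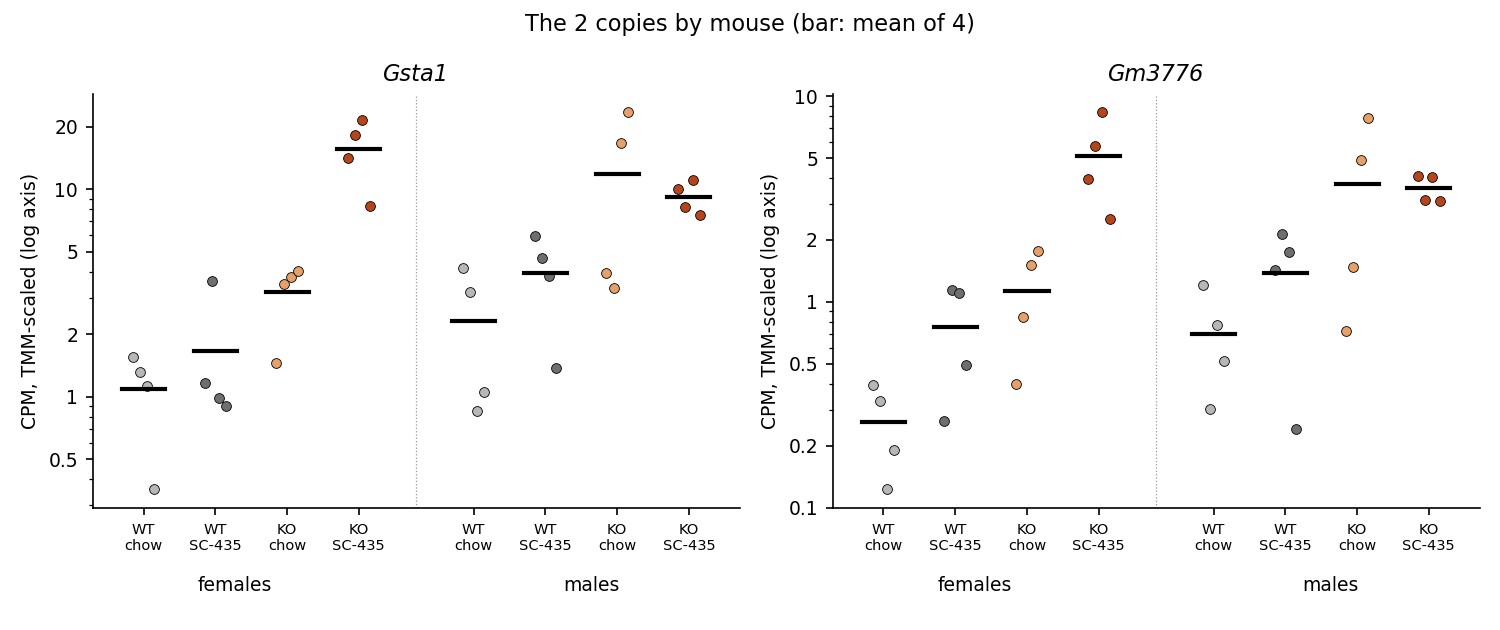
TMM-scaled CPM of Gsta1 (left) and Gm3776 (right) in each of 32 mice on a log axis, by group, with a bar at the mean of 4. Female KO mice on SC-435 are the highest female group (Gsta1 8.29 to 21.5 CPM), and male KO mice on chow spread from 3.33 to 23.4 CPM.

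The first comparison asked how the members differed between KO and WT mice on chow. A gene was called when the adjusted p of the edgeR quasi-likelihood test over all genes was under 0.05 and the log2 fold change was beyond 1 in size. In females 2 of the 8 other members were called higher and 0 lower, where 5.67% of 16205 genes were called higher and 1.01% lower. The median log2 fold change of the 8 was 0.12 and that of all genes -0.02. By DESeq2, 2 members were called higher and 0 lower, where 3.96% of 28607 genes were called higher and 0.762% lower. By edgeR 3 members had an unadjusted p under 0.05, all higher, where 4998 of 16205 genes had one in either direction.

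Gsta2, an alpha class subunit, rose in female KO mice. It was at 29.2, 18.7, 31.2 and 22.2 CPM in WT and at 47.5, 62.7, 46.6 and 51.5 CPM in KO, without overlap (log2 fold change 1.06 ± 0.17 SE, adjusted p = 0.0037). Gstm3, a mu class subunit, also rose, from 83.3, 57.9, 51.5 and 31.1 CPM in WT to 58.8, 163, 118 and 140 CPM in KO, with 1 KO mouse inside the WT range (log2 fold change 1.12 ± 0.33 SE, adjusted p = 0.0463). The call of Gstm3 was lost without any of replicates 2, 3 and 4 of either group (adjusted p 0.016 to 0.125 over all 8 omissions, log2 fold change 0.92 to 1.38). That of Gsta2 was lost without replicate 2 of WT or replicate 2 of KO, where its log2 fold change was as low as 0.94. Gsta4, the alpha class enzyme known for conjugating 4-hydroxynonenal, passed the adjusted p but not the fold, at 43.6 to 69.9 CPM in WT and 70.3 to 84.6 CPM in KO, without overlap (log2 fold change 0.52 ± 0.14 SE, adjusted p = 0.0357). In this comparison 11.1% of all genes tested had every KO mouse above every WT mouse and 10.5% had every one below.

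Gstm1, the most abundant member in females by CPM per kb, was at 1026 to 1410 CPM in female WT and 918 to 1352 CPM in female KO mice on chow (log2 fold change 0.03 ± 0.15 SE, adjusted p = 0.908). Gsta3 (log2 fold change -0.48 ± 0.23 SE, adjusted p = 0.190), Gstm2 (-0.56 ± 0.37, adjusted p = 0.336) and Gstm4 (-0.37 ± 0.24, adjusted p = 0.331) had negative values that did not pass. Members of the same class therefore lay on opposite sides of 0 within the same comparison.

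In males 0 of the 8 members were called by edgeR in either direction, where 0.914% of 15862 genes were called higher and 0.132% lower. Without WT replicate 1, 0 members were called and 3.18% of 16390 genes were higher and 0.702% lower. With all libraries DESeq2 also called 0, where it called 2.76% of 28515 genes higher and 0.628% lower. By edgeR 2 members had an unadjusted p under 0.05, Gstm3 and Gsta3, where 2444 of 15862 genes had one. Gstm3 was at 162, 85.5, 81.4 and 80.1 CPM in WT and at 102, 104, 278 and 414 CPM in KO (log2 fold change 1.20 ± 0.49 SE, adjusted p = 0.291). The KO mice with high Gstm3 were the same 2 mice that had high Gsta1. Gsta3 was at 2759, 1417, 1255 and 1146 CPM in WT and at 1063, 1092, 993 and 635 CPM in KO, without overlap, as 7% of all genes were below and 7.71% above (log2 fold change -0.76 ± 0.32 SE, adjusted p = 0.305). Without WT replicate 1 the log2 fold change of Gsta3 was -0.39 (adjusted p = 0.220), that of Gstm3 was 1.50 (adjusted p = 0.103), and those of Gstm1 and Gstm2 changed sign, to 0.21 and 0.16. Every same-numbered pair of libraries correlated above 0.1 in its deviations in this comparison, and with the replicate number as a block 15 genes in all were called higher and 2 lower against 145 and 21, with 0 members in either fit.

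The next comparison asked how SC-435 changed the members in KO mice, using the same KO chow libraries as the comparison of genotypes. In females 2 of the 8 members were called higher and 0 lower, where 2.11% of 16332 genes were called higher and 3.7% lower. The median log2 fold change of the 8 was 0.62, against -0.02 over all genes, and 7 of the 8 values lay above 0. DESeq2 called 3 higher and 0 lower, where it called 1.44% of 28661 genes higher and 2.51% lower.

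Both called genes encode mu class subunits. Gstm4 was at 26.1, 34.8, 41.6 and 66.1 CPM in female KO mice on chow and rose to 102, 126, 126 and 94.8 CPM on SC-435 (log2 fold change 1.40 ± 0.24 SE, adjusted p = 0.00608). Gstm2 was at 24.3, 35.6, 53.4 and 79.6 CPM on chow and rose to 105, 113, 128 and 116 CPM (log2 fold change 1.25 ± 0.29 SE, adjusted p = 0.0178). Neither gene's groups overlapped (11.8% of all genes tested had every SC-435 mouse above every chow mouse and 10% had every one below), and the SC-435 mice lay within a narrower range than the chow mice. The call of Gstm2 was lost without replicate 2 of KO on chow or replicate 3 of KO on SC-435 (adjusted p up to 0.0548). Gstm3 was at 207 to 265 CPM on SC-435 against 58.8 to 163 CPM on chow, without overlap, and passed the adjusted p with a log2 fold change just under the threshold (0.99 ± 0.25 SE, adjusted p = 0.0228).

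Among the alpha class, Gsta3 in female KO mice was at 672 to 1220 CPM on chow and 1185 to 1491 CPM on SC-435 (log2 fold change 0.63 ± 0.17 SE, adjusted p = 0.0313), again short of the fold. Gsta2 was at 49.8 to 96.8 CPM on SC-435 (log2 fold change 0.60 ± 0.19 SE, adjusted p = 0.0506). Gsta4 had the only negative value (log2 fold change -0.29 ± 0.14 SE, adjusted p = 0.166). Gstm1 and Gstp1 were within 0.27 and 0.06 log2 units of the chow level, and neither passed.

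In male KO mice 0 of the 8 members passed both thresholds by edgeR, where 1.88% of 15984 genes were called higher and 4.57% lower, although 4 passed the adjusted p with smaller folds. DESeq2 called 2 higher and 0 lower, where it called 1.35% of 28716 genes higher and 4.14% lower. Gsta2 was at 23.3, 31.5, 39.2 and 38.2 CPM on chow and at 66.8, 63.2, 78.6 and 59.8 CPM on SC-435 (log2 fold change 0.99 ± 0.17 SE, adjusted p = 0.00685). Gsta3 was at 1063, 1092, 993 and 635 CPM on chow and at 1855, 1653, 2162 and 1997 CPM on SC-435 (log2 fold change 0.99 ± 0.18 SE, adjusted p = 0.00873). Both lay just under the fold threshold, so 0 to 2 members were called when any 1 library was left out. Gstm4 was at 60.7, 66.1, 61.2 and 52.8 CPM on chow and at 113, 114, 126 and 116 CPM on SC-435 (log2 fold change 0.93 ± 0.08 SE, adjusted p = 0.000307). None of these 3 genes had overlapping groups, where 15.1% of all genes tested had every SC-435 mouse above every chow mouse and 11% every one below.

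Gstp1 went the other way in male KO mice, from 1420, 1545, 1017 and 1125 CPM on chow to 755, 920, 721 and 705 CPM on SC-435, without overlap (log2 fold change -0.75 ± 0.16 SE, adjusted p = 0.0154). Gstp1 encodes the pi class subunit, which in rodent liver is known to differ between the sexes. Gstm3 in males had a negative value (log2 fold change -0.40 ± 0.44 SE, adjusted p = 0.548) that became 0.08 without replicate 4 of KO on chow, the mouse with 414 CPM. Gstm2 was at 46.8 to 80.0 CPM on chow and 77.9 to 103 CPM on SC-435 (adjusted p = 0.0712).

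**Figure D3:**
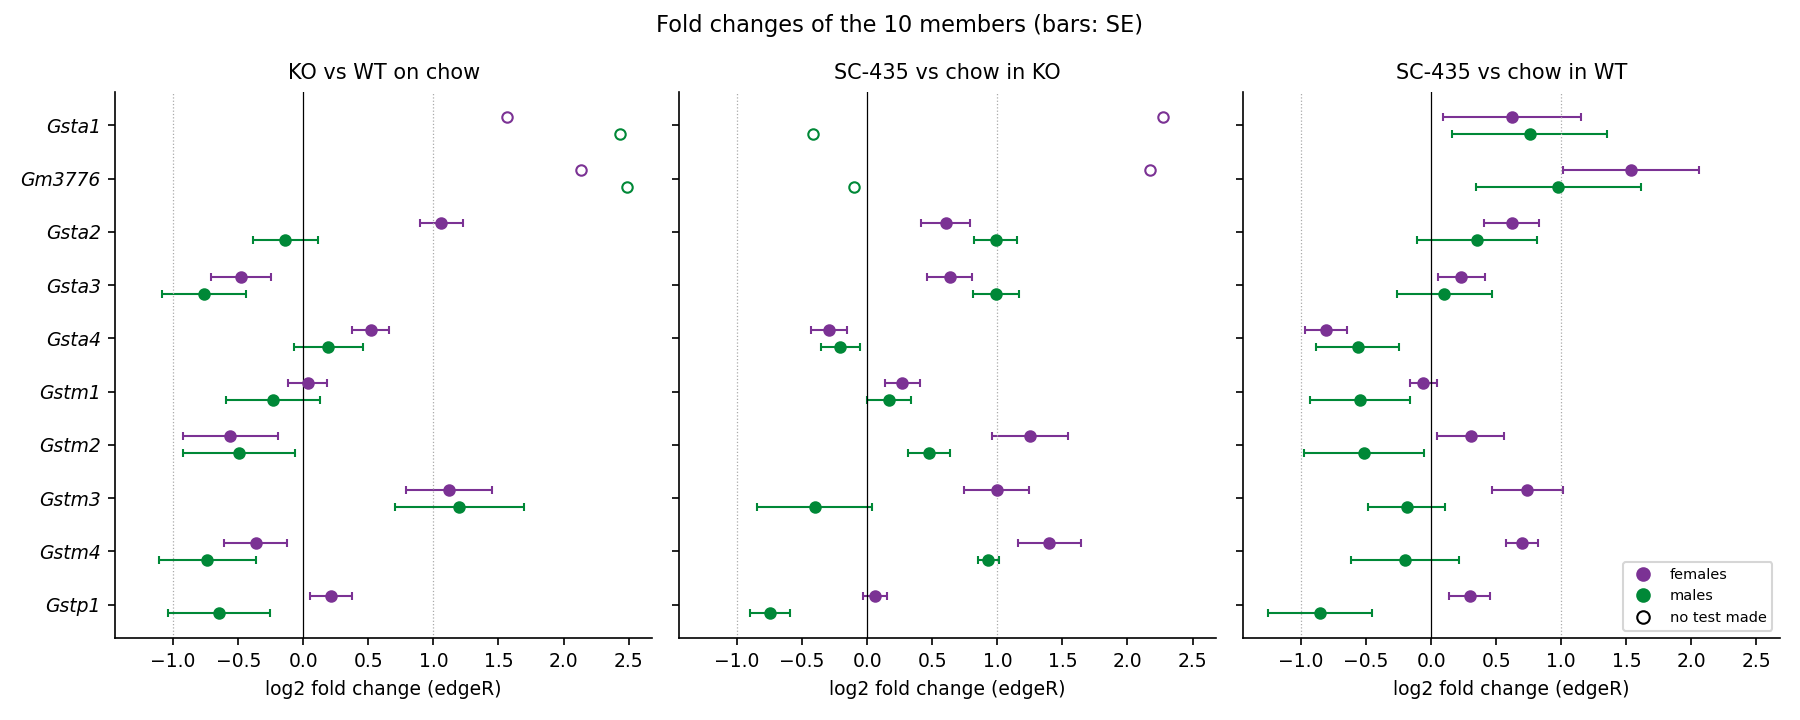
Fold changes (log2, horizontal axis) of the 10 members in females and males for KO over WT on chow, SC-435 over chow in KO and SC-435 over chow in WT, with bars for the SE; open circles mark Gsta1 and Gm3776 where no test was made, and dotted lines mark the fold threshold. In KO mice on SC-435, Gsta2, Gsta3 and Gstm4 lie right of 0 in both sexes and Gsta4 left of 0 in both.

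The same inhibitor was compared in WT mice, for all 10 members, against WT chow libraries that also served in the comparison of genotypes. In females 0 of 10 were called by edgeR, where 0.686% of 15739 genes were called higher and 0.413% lower. DESeq2 also called 0, where it called 0.578% of 27692 genes higher and 0.386% lower. By edgeR 5 members had an unadjusted p under 0.05, where 3114 of 15739 genes had one. Gstm4 passed the adjusted p, from 63.4, 48.9, 60.5 and 47.5 CPM on chow to 76.7, 91.1, 83.7 and 104 CPM on SC-435 without overlap (log2 fold change 0.70 ± 0.12 SE, adjusted p = 0.0157). Gsta4 passed it in the opposite direction, from 69.9, 43.6, 48.9 and 53.9 CPM to 30.3, 36.4, 32.1 and 24.0 CPM, also without overlap (log2 fold change -0.81 ± 0.16 SE, adjusted p = 0.0244). Of all genes tested, 7.2% had every SC-435 mouse above every chow mouse and 6.15% had every one below. Gsta1 (0.62 ± 0.53 SE, adjusted p = 0.559) and Gm3776 (1.54 ± 0.52 SE, adjusted p = 0.139) did not pass. Without replicate 2 of WT on SC-435 the log2 fold change of Gsta1 was -0.09.

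In male WT mice 0 of 10 members were called by edgeR, where 0.0131% of 15211 genes were called higher and 0.0263% lower. DESeq2 called 0, where it called 0.345% of 27249 genes higher and 0.161% lower. An unadjusted p under 0.05 by edgeR was found for 0 members and 931 of 15211 genes. The log2 fold changes of the members ran from -0.86 (Gstp1, adjusted p = 0.836) to 0.98 (Gm3776, adjusted p = 0.836). Without replicate 1 of WT on chow the value of Gstp1 was -0.27 and those of Gstm2, Gstm3 and Gstm4 turned positive, at 0.17, 0.14 and 0.39, with 0 called, while 0.674% of 15577 genes were called higher and 0.353% lower.

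Gstp1 differed between the sexes by more than the fitted difference of any member between genotypes or diets. In WT mice on chow it was at 142, 141, 97.0 and 92.6 CPM in females and at 4042, 1248, 1460 and 1455 CPM in males. The log2 fold change was 4.15 ± 0.45 SE (adjusted p = 0.00196), and without male replicate 1 it was 3.57 (adjusted p = 4.26e-06). Gstp1 was the only member called in this comparison, where 0.689% of 15525 genes were called higher in males and 0.709% lower, and it was also the only one without male replicate 1, where 1.76% of 15895 genes were higher and 2.06% lower. Over all 8 groups the 16 females spanned 92.6 to 164 CPM and the 16 males 705 to 4042 CPM, so the sexes did not overlap in any genotype or diet. In WT mice on chow, 4.95% of all genes tested had every male above every female and 6.5% had every one below. Gstp2, the neighbouring copy with 98.1% coding identity, was also higher in males (log2 fold change 3.19 ± 0.42 SE, adjusted p = 0.00607), at 0.236 to 0.541 CPM in females and 2.21 to 5.96 CPM in males, and whether these counts came from Gstp1 reads was not tested.

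All 10 members had a positive value for males over females in WT mice on chow, from 0.37 (Gstm2) to 4.15 (Gstp1), but 9 did not pass. An unadjusted p under 0.05 was found for 5 of the 10, where 1649 of 15525 genes had one. Without male replicate 1 Gstm2 changed sign to -0.31, Gstm1 fell from 0.70 to 0.23 and Gsta3 from 0.46 to 0.08 on the log2 scale.

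**Figure D4:**
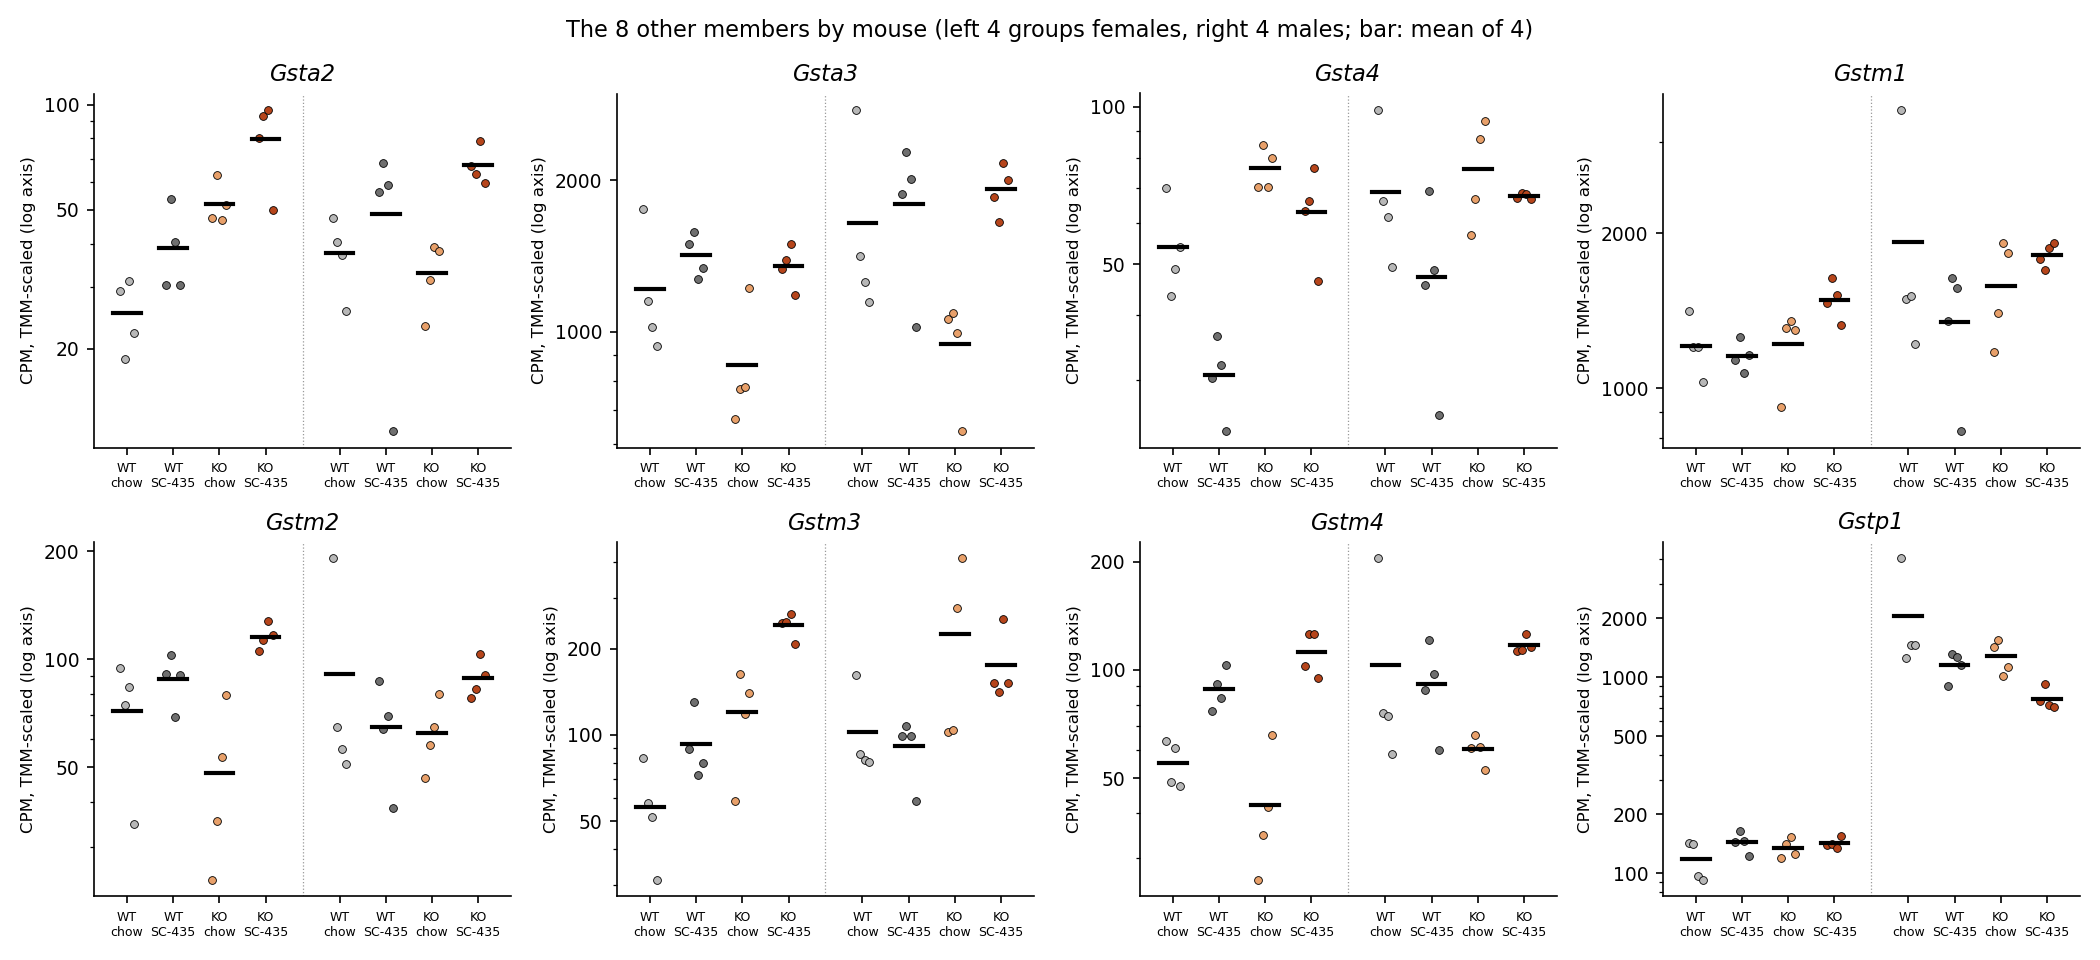
TMM-scaled CPM of the 8 members other than Gsta1 and Gm3776 in each mouse on log axes, the 4 female groups on the left of each panel and the 4 male groups on the right, with a bar at the mean of 4. Gstp1 lies between 92.6 and 164 CPM in females and above 705 CPM in males, and 1 male WT mouse on chow (replicate 1) is the highest of its group in all 8 panels.

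Differences between contrasts were tested as interactions, at an adjusted p under 0.05. The genotype by diet interaction called 0 of the 8 members in females, where it called 2.64% of all genes, and 0 in males, where it called 0.0906%. Unadjusted p values under 0.05 numbered 3 in females (Gsta4, Gstm2 and Gstm4) and 1 in males (Gstm4). Over all genes they numbered 3355 of 16882 in females and 2208 of 16555 in males. DESeq2 called 0 members in both, with 1.74% of 30262 genes called higher and 2.22% lower in females. In males it called 0.426% of 30061 genes higher and 0.629% lower. Without replicate 1 of male WT on chow, 0 members were called in males, with 51 genes called higher and 67 lower in all. In females 0 to 2 members were called when 1 library was left out, the 2 without replicate 4 of KO on chow. That fit also called more of all genes, 4.6% of 17182 higher and 4.97% lower. The response to SC-435 of these 8 genes was therefore not shown to differ between KO and WT.

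The sex by genotype interaction called 0 of 8 members and 0.0235% of all genes. Gsta2, which rose in female KO mice and had a log2 fold change of -0.14 in males, had an interaction of -1.25 ± 0.31 SE (male minus female, adjusted p = 0.366). Without replicate 1 of male WT on chow it was -1.10 (adjusted p = 0.101), with 0 members called and 42 genes higher and 33 lower in all. DESeq2 called 1 member lower, where it called 33 genes higher and 39 lower in all against 2 and 2 by edgeR. The sex by diet interaction in KO called 0 of 8 and 0.211% of all genes. Gstp1 (-0.79 ± 0.19 SE, adjusted p = 0.107) and Gstm3 (-1.37 ± 0.55 SE, adjusted p = 0.309) had an unadjusted p under 0.05 there, as did 2131 of 17069 genes in all. DESeq2 called 1 member lower, where it called 146 genes higher and 187 lower in all against 19 and 17 by edgeR. For Gsta1 the value was -2.66 and for Gm3776 -2.25, both without a test since they share the contrast that chose the genes.

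Across the 32 livers the members most alike to Gsta1 in pattern were Gm3776 and Gstm3. The Pearson correlation of log2 CPM with Gsta1 was 0.932 for Gm3776, in which 75.7% of the 50-base words of Gsta1 occur. It was 0.924 for Gstm3, of which the Gsta1 transcripts share no 50-base word. After the group means were removed it was 0.781 for Gm3776 and 0.882 for Gstm3, so the likeness to Gstm3 was also present among mice of the same group. With the group means kept, the correlation was 0.690 for Gsta2, 0.589 for Gstm1, 0.552 for Gsta4 and 0.467 for Gstm2. It was 0.421 for Gstm4, 0.193 for Gstp1 and 0.164 for Gsta3. With them removed, it was 0.652 for Gsta2, 0.728 for Gstm1, 0.718 for Gsta4 and 0.688 for Gstm2. For Gstm4, Gstp1 and Gsta3 it was then 0.453, 0.116 and 0.38, so likeness within groups was not particular to Gstm3. These values describe 32 livers that share groups and library scaling.

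**Figure D5:**
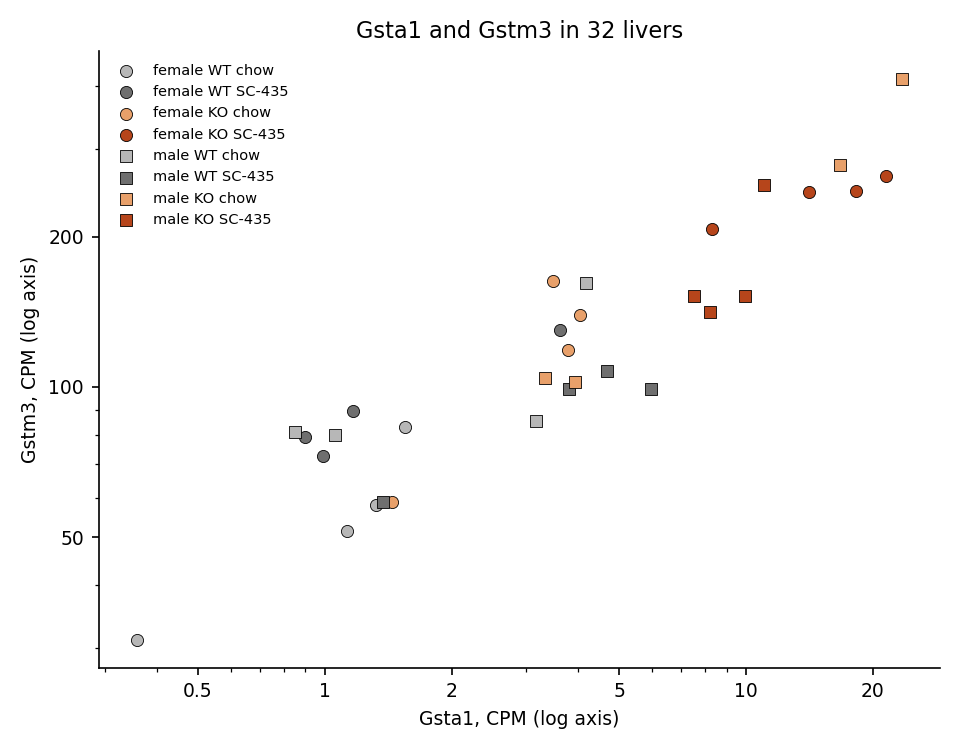
Gsta1 (horizontal) against Gstm3 (vertical), both in TMM-scaled CPM on log axes, for each of 32 livers (circles for females, squares for males, shade for genotype and diet). The points lie along a band from 0.358 CPM of Gsta1 with 31.1 CPM of Gstm3 to 23.4 CPM with 414 CPM.

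Outside the GST family, the 5 of 11710 protein-coding genes most alike to Gsta1 were Pgd (r = 0.788), Pdzk1ip1 (0.755), Anxa5 (0.746), Dck (0.743) and Sri (0.737). Pgd encodes 6-phosphogluconate dehydrogenase, an NADPH-producing enzyme of the pentose phosphate pathway. It was at 38.9 to 59.6 CPM in female KO mice on chow and 71.6 to 84.7 CPM on SC-435, and in male KO mice on chow replicates 3 and 4 had 63.7 and 91.7 CPM against 47.9 and 45.1. Dck is deoxycytidine kinase and Sri the calcium-binding protein sorcin. Anxa5, the phospholipid-binding annexin A5, was at 61.5 to 80.8 CPM in female WT and 97.9 to 152 CPM in female KO mice on chow.

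Some other genes of glutathione metabolism were called. Over all genes, 5.67% were called higher in female KO mice on chow. With SC-435 the shares called higher and lower were 2.11% and 3.7% in female KO and 1.88% and 4.57% in male KO mice. In female WT mice on SC-435 they were 0.686% and 0.413%. Among other GST and related transferase genes, 1 of 16 tested was called higher in female KO mice, Hpgds, the prostaglandin D synthase of the sigma class (log2 fold change 1.97 ± 0.26 SE, adjusted p = 0.00217). In female KO mice on SC-435 it fell (log2 fold change -1.29 ± 0.28 SE, adjusted p = 0.0142). Hpgds is known from haematopoietic cells, and the part of any cell type in its change was not tested. The median log2 fold change of these 16 genes in female KO mice was -0.25, against -0.02 over all genes. In male KO mice on SC-435 the theta class gene Gstt3 (1.60 ± 0.13 SE, adjusted p = 0.000239) and the microsomal Mgst3 (1.07 ± 0.19 SE, adjusted p = 0.00825) rose and Gstp2 fell (-1.63 ± 0.26 SE, adjusted p = 0.00594), 2 higher and 1 lower of 16 tested (median log2 fold change 0.61, against -0.03 over all genes). Gstp2 went the way of Gstp1.

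Of 12 tested genes of glutathione synthesis and recycling, 0 were called between genotypes in either sex. With SC-435 in KO mice, Chac1, which degrades glutathione, fell in females (log2 fold change -2.09 ± 0.39 SE, adjusted p = 0.00794), and Cth, the cystathionine lyase that supplies cysteine, rose in males (1.10 ± 0.21 SE, adjusted p = 0.011). Of 8 genes of conjugate export, Abcc4, a basolateral efflux pump for conjugates and bile acids, was the 1 called with SC-435, in female KO (1.07 ± 0.15 SE, adjusted p = 0.00258), male KO (1.50 ± 0.24, adjusted p = 0.00588) and female WT mice (1.20 ± 0.16, adjusted p = 0.00599). Abcg2 was called higher in WT males than in females (1.07 ± 0.15 SE, adjusted p = 0.00718).

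Of 21 tested genes of the NRF2 axis, 0 were called between genotypes in females (median log2 fold change 0.19) or males (0.02). With SC-435 the malic enzyme gene Me1, a source of NADPH, rose in female KO (1.48 ± 0.34 SE, adjusted p = 0.0166) and male KO mice (2.07 ± 0.14 SE, adjusted p = 0.000128). Ugdh, which makes UDP-glucuronate for conjugation, rose in female KO (1.13 ± 0.09 SE, adjusted p = 0.000578) and female WT mice (1.20 ± 0.16 SE, adjusted p = 0.00599). These were 2 of 21 in female KO, 1 in male KO and 1 in female WT mice, where 2.11%, 1.88% and 0.686% of all genes were called higher. Nqo1, a well known NRF2 target, was not called in any comparison and stood at 7.83 to 13.2 CPM in female KO mice on chow and 16.3 to 19.7 CPM on SC-435.

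Of the genes of the CAR and PXR axis, 14 tested in females, the receptor gene Nr1i3 (CAR) fell in female KO mice (log2 fold change -1.24 ± 0.21 SE, adjusted p = 0.00509) and Cyp2c55 rose (1.23 ± 0.26 SE, adjusted p = 0.0133). Over all genes 5.67% were called higher and 1.01% lower there. In male KO mice on SC-435, 3 of 12 rose, Cyp2b10 (2.46 ± 0.30 SE, adjusted p = 0.00185), Cyp2b9 (2.44 ± 0.48, adjusted p = 0.0121) and Por (1.16 ± 0.23, adjusted p = 0.0126), where 1.88% of all genes were called higher. Cyp2b10 is the classic CAR target. It was at 1.98 to 2.78 CPM in male KO mice on chow and 8.53 to 22.1 CPM on SC-435. Cyp2b9 was very scarce in these mice, at 0.0591 to 0.253 CPM on chow and 0.418 to 1.24 CPM on SC-435. Cyp2b13, Cyp2b9 and Cyp3a41a, known as female-predominant, were lower in WT males.

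Marker lists of other liver cells moved with genotype and diet, and their part in the GST values was not tested. The summed level of 10 cholangiocyte markers was 57.8 to 89.6 CPM in female WT and 156 to 317 CPM in female KO mice on chow, with 6 of 9 tested called higher, among them Spp1 (log2 fold change 2.40), Muc1 (1.91) and Krt19 (1.55), and a median of 1.56. It was 120.3 to 169 CPM in female KO mice on SC-435, with 0 called lower. In males it was 45.6 to 55.1 CPM in WT and 169 to 1179 CPM in KO on chow, and 68.0 to 79.1 CPM in KO on SC-435, where 6 of 9 were called lower.

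The summed level of 10 macrophage markers was 367 to 446 CPM in female WT, 606 to 920 CPM in female KO on chow and 304 to 470 CPM in female KO on SC-435, with 6 of 10 called higher in KO (median log2 fold change 1.17) and 6 of 10 called lower with SC-435 (median -1.08). For 9 stellate cell markers the sums were 280.3 to 392 CPM, 426 to 940 CPM and 390.4 to 475 CPM. The sum of 10 hepatocyte markers was 100000 to 125500 CPM in female WT mice, 62840 to 85410 CPM in KO on chow and 89750 to 103600 CPM in KO on SC-435. In KO females it was thus lower on chow than on SC-435. Of the 10 markers, 1 was called lower in female KO against WT on chow, Apoa1 (median log2 fold change of the list -0.29). With SC-435 in KO females 0 were called (median 0.15), and 7 of the 8 tested members had a positive fitted value. In male KO mice the hepatocyte sum was 58610 to 89920 CPM on chow and 72130 to 96550 CPM on SC-435, which overlapped. With SC-435, 0 of the 10 markers were called in these males (median 0.16). There 5 of the 8 tested members had a positive fitted value with SC-435. The part of hepatocyte content in these values was not tested.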

How the data were processed

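Liver poly-A RNA-seq of 32 mice (8 groups of 4) was used. The authors deposited raw counts per gene, with FPKM values that were not used here; the submitters' processing notes name mm10, HISAT2 2.0.5, featureCounts 1.5.0-p3, DESeq2 1.20.0 and GATK 4.1.1.0, and the deposited table also gives gene length and position. Its columns of group means, log2 fold changes and p-values from the comparisons the authors made were not used. The strand setting and the handling of reads that fit several genes are not given in the sources used here, and antisense or overlapping genes may share reads.

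From the counts, edgeR 4.0.16 in R 4.3.3 was run on the libraries of each comparison (all groups of a contrast for interactions): filterByExpr, TMM scaling, quasi-likelihood F test, Benjamini-Hochberg adjustment over all genes tested; the SE is the log2 fold change over the root of F. Scripts were tested on simulated data. DESeq2 1.42.0, other scalings, no filter, a replicate block and leaving out each library were the alternatives. The correlation with Gsta1 used log2(CPM + 0.5) and genes with a mean of 50 counts or more. Sequences came from GENCODE transcripts (GRCm38) and RefSeq promoters (GRCm38.p6).

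The members and all gene lists were chosen with earlier results of these data known. Named were all 10 members, up to 3 called genes per list and direction with the smallest adjusted p, and the 5 genes most alike to Gsta1; Nqo1 was added after its values were seen. The labels give no litter or batch, and each library is 1 mouse. Numbers were taken as pairs where every same-numbered pair's deviations from the group means correlated above 0.1, which held for KO against WT males on chow (r = 0.101 to 0.194); between the sexes in WT the 4 pairs ran from 0.083 to 0.459. No libraries were duplicates. Libraries of 36476021 to 44771350 counts set the precision, and values of a few counts, as for Gm3776 in WT, carry large counting error.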

Additional observations from a re-analysis of the deposited data

Results flagged for a closer look

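In 9 of 80 groups of 4 values (10 members in 8 groups), 1 mouse stood apart from the other 3 by Dixon's criterion; chance gives about 1 in 20 groups. In male WT mice on chow, replicate 1, the library with the low scaling factor, was the mouse that stood apart for 6 members: Gsta3 (2759 CPM), Gstm1 (3474 CPM), Gstm2 (191 CPM), Gstm3 (162 CPM), Gstm4 (204 CPM) and Gstp1 (4042 CPM). In female WT mice on SC-435, replicate 2 was high for Gsta1 (3.61 CPM). In female KO mice on chow, replicate 1 was low for Gstm1 (918 CPM). In male KO mice on SC-435, replicate 3 was high for Gstm3 (254 CPM).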

How the results depend on the processing

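The number of members called higher in female KO mice on chow was 1 with the replicate block and 0 to 2 when each library was left out in turn. For SC-435 in female KO mice it was 3 with the replicate block, which added Gstm3 (1.08, adjusted p = 0.0358), and 1 to 3 on leaving out a library. For SC-435 in male KO mice it was 2 by DESeq2, 2 with the replicate block and 0 to 2 on leaving out a library, and 0 to 2 for the genotype by diet interaction in females. DESeq2 called 1 member lower in the sex by genotype and 1 in the sex by diet interaction. In each case the cause was not tested.

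With no scaling beyond library size, the all-gene median shifted on the log2 scale by 0.19 in KO against WT females, 0.25 in KO against WT males, -0.16 and -0.20 for SC-435 in female and male KO mice and -0.16 between the sexes. Under it 5 values that had not passed changed sign: in KO against WT males Gsta2 (0.19) and Gstm1 (0.18), for SC-435 in KO Gstp1 in females (-0.10) and Gstm1 in males (-0.058), and Gstm4 for SC-435 in WT males (0.039).

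Leaving out a library changed the sign of other values that had not passed, over these ranges of log2 fold change: for KO against WT, Gstm1 in females (-0.040 to 0.16) and in males Gsta2 (-0.29 to 0.0011), Gstm1 (-0.40 to 0.21) and Gstm2 (-0.69 to 0.16); for SC-435 in WT females, Gsta1 (-0.086 to 0.83) and Gstm1 (-0.13 to 0.020); for SC-435 in WT males, Gsta3 (-0.017 to 0.49), Gstm2 (-0.70 to 0.17), Gstm3 (-0.29 to 0.14) and Gstm4 (-0.37 to 0.39); for SC-435 in KO males, Gstm3 (-0.65 to 0.081); and between the sexes, Gstm2 (-0.31 to 0.57). No called member changed sign under these alternatives.

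Over all genes, the counts called higher and lower in KO against WT males were 145 and 21, 788 and 179 by DESeq2, 234 and 39 without the filter, and 15 and 2 with the replicate block. For SC-435 in KO males the lower count of 730 became 1189 by DESeq2 and 420 with the block. Between the sexes 107 and 110 became 235 and 260 by DESeq2 and 65 and 69 with the block. For SC-435 in WT males 2 and 4 became 94 and 44 by DESeq2. For SC-435 in KO females the lower count of 604 became 929 by library size alone, and in WT females 65 became 107 by DESeq2. Apart from the male KO against WT comparison, at least 1 same-numbered pair of each comparison correlated at 0.1 or less, and the replicate block changed no member's call other than those given.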
